A study of Mus musculus with 4 samples.

Results

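The response to the cytokine IL-17A of mouse hepatic stellate cells kept in medium from adipose tissue-derived stem cells (ADSC medium) was described by setting the array of cells given IL17A and ADSC medium against the array of cells given ADSC medium alone. These are 2 of the 4 arrays of the study, chosen by their titles, with 1 array a group. The cells of every group were IMS/N, a single line of stellate cells from normal 129/Sv mice that had been immortalized with SV40. The groups were cells with recombinant murine IL-17A (Peprotech) plus ADSC medium, cells with ADSC medium, cells with recombinant murine IL-17A, and cells with neither addition. The medium came from cultures of stem cells isolated from inguinal subcutaneous fat of male C57BL/6J mice of 8 to 10 weeks. Doses and times are not given in the sources used here. The arrays with IL17A plus ADSC medium and with ADSC medium lay on slide 2, and those with IL17A and with no addition on slide 1, so that an effect of the medium cannot be told apart from one of the slide, whereas each IL17A comparison was made within a slide. Because each group was 1 array, no difference has a replicate check, no test was possible, and "higher" and "lower" describe 2 arrays. As RNA was taken from whole cultures, fewer cells of a kind and less RNA per cell cannot be told apart.

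IL-17A binds a receptor made of Il17ra and Il17rc, which recruits the adaptor Act1 (Traf3ip2). The signal runs through NF-kB and C/EBP transcription factors and through proteins that lengthen or shorten the life of inflammatory mRNAs, and its best known targets are neutrophil-attracting chemokines, Il6, colony stimulating factors and antimicrobial proteins. In the liver, stellate cells store vitamin A at rest and make collagen-rich matrix as myofibroblasts after injury.

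With IL17A in ADSC medium, secreted inflammatory proteins and transcriptional and mRNA-decay regulators of the same pathway were among the genes with the largest higher differences. Cxcl5, Il6 and Cxcl1 were 60.3-fold, 44.7-fold and 41.7-fold higher. The largest lower differences of named genes above background on both arrays were those of the hair keratin-associated gene Krtap6-1 (-4.18 on the log2 scale) and the cilium gene Hydin (-3.72). Both genes were high on the ADSC medium array and well below that on every other array. Read from its brightest probe, RefSeq accession or not, Hydin had -0.33. Measured collagen, contractile, mitosis and IL-17 receptor genes lay within 2-fold, as most measured genes did, apart from a single contractile gene, Lmod1. A gene was counted as higher or lower where it differed by at least 1 on the log2 scale and the brighter array read it well above background. By that rule 198 of 13221 measured genes were at least 2-fold higher, or 1.5%, and 251 were at least 2-fold lower, or 1.9%. Of the 12566 genes above background on both arrays, 90.0% differed by less than 0.5 on the log2 scale, and their median difference was -0.04. The 4-fold mark was passed by 72 higher and 32 lower genes.

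The split between the directions moved with the scaling. Higher genes were 44.1% of all called genes under quantile normalization of all probes, 64.0% with 75th percentile scaling (259 higher, 146 lower) and 60.3% when only RefSeq probes were normalized together (246 higher, 162 lower). With normexp background correction, which adds an offset and shrinks differences of dim probes, 58 genes were higher and 22 lower, or 72.5% higher. Of the named genes above background on both arrays, 13 of 45 higher and 26 of 33 lower ones then stood under 2-fold, all with the same sign. The lower genes were mostly dim. Among genes with a mean log2 level under 5, 96 of 1758 were lower and 29 higher, with a median difference of -0.26, whereas above a level of 11 there were 3 lower and 14 higher genes of 3253, with a median of -0.0066.

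**Figure D1:**
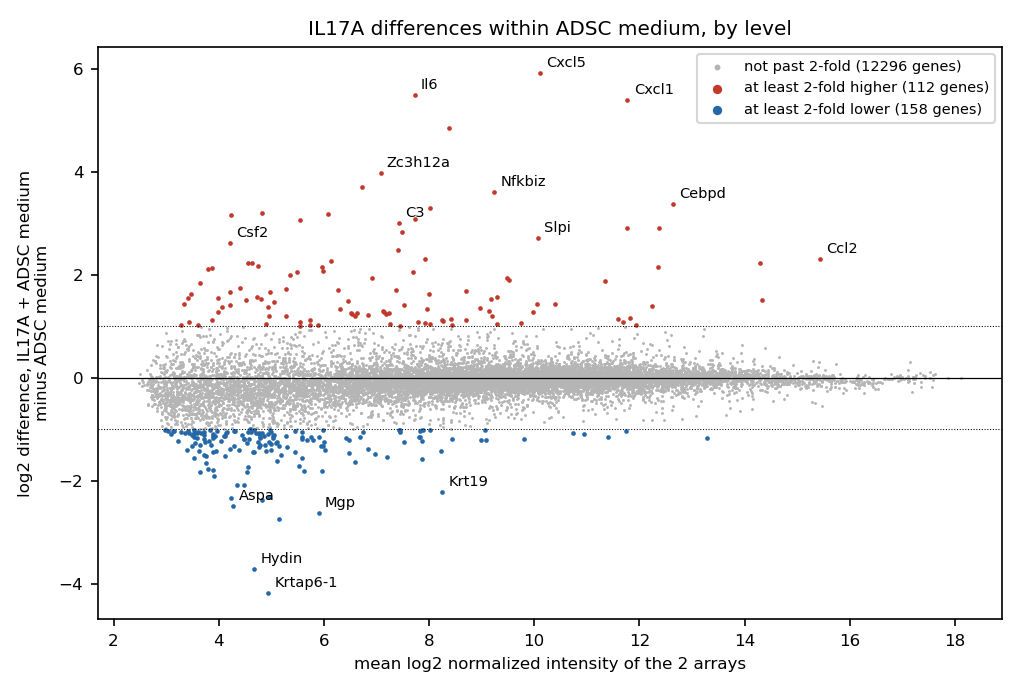
Log2 difference of IL17A plus ADSC medium minus ADSC medium (vertical axis) against the mean log2 normalized intensity of both arrays (horizontal axis), 1 point per gene above background on both. Red points are the 112 genes at least 2-fold higher, which reach the bright end of the scale, and blue points the 158 at least 2-fold lower, most of them dim, and the dotted lines mark 2-fold.

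Genes of the receptor and its adaptors differed little. Of the 16 that were measured, 0 rose above and 0 fell below the 2-fold mark. Over all measured genes 1.5% were higher and 1.9% lower, so a count of 0 in a list of this size is near that share. The median difference was -0.04, the same as over all genes. Il17ra, the ligand-binding chain, had a log2 level of 7.80 with IL17A plus ADSC medium and 7.92 with ADSC medium. For Il17rc, its partner chain, the levels were 13.04 with IL17A plus ADSC medium and 13.26 with ADSC medium. Both chains were thus well above background on the arrays compared, with differences of -0.12 and -0.22. Traf3ip2, the adaptor Act1, stood at 8.35 with IL17A plus ADSC medium and 7.82 with ADSC medium, the largest difference of the list at 0.52. The inhibitory receptor gene Il17rd had the lowest, at -0.51, and Traf6, the ubiquitin ligase downstream of Act1, differed by 0.03.

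Among transcription factors and their inhibitors, a few genes stood far above the rest. Nfkbiz encodes the atypical I-kappa-B protein that works as a coactivator of secondary NF-kB targets. Its log2 level was 11.04 with IL17A plus ADSC medium and 7.44 with ADSC medium, and without medium 10.93 with IL17A and 7.19 in untreated cells. Both IL17A arrays were thus high and both others low, and within the medium the log2 difference was 3.60. Cebpd encodes a C/EBP factor that rises early in inflammation. It read 14.32 with IL17A plus ADSC medium and 10.94 with ADSC medium, and without medium 14.94 with IL17A and 11.26 in untreated cells, a 10.4-fold difference within the medium. Bcl3, another nuclear I-kappa-B protein, was 3.67-fold higher, at 12.29 with IL17A plus ADSC medium and 10.41 with ADSC medium. The I-kappa-B gene Nfkbid was not well above background with ADSC medium and was at least 3.43-fold higher, with a log2 difference of 0.30 with normexp. For an "at least" fold, the dim array is given its own value or, if that is lower, the weakest signal it read as well above background. Such a fold is a bound under the main processing only, and other settings can give a smaller difference.

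Of 23 measured NF-kB subunit and inhibitor genes, 3 were at least 2-fold higher and 0 lower, and the median difference was 0.10, which turned to -0.12 with median scaling, where the median of all genes stood at -0.26. The subunits themselves were close to their level with ADSC medium, with 0.05 for Rela, 0.30 for Relb and -0.23 for Nfkb2. Nfkbia, the classical inhibitor, was just short of the mark at 0.94, and Tnfaip3, the ubiquitin-editing brake A20, was at -0.19. Of 16 measured C/EBP and Stat3 genes, 3 were higher and 0 lower, with a median of 0.15, or -0.08 with median scaling. Beside Cebpd these were Socs3, the feedback inhibitor of Il6 signalling (1.16), and Osmr, the oncostatin M receptor (1.14). Cebpb, the other C/EBP factor of the pathway, had a difference of 0.89, and Stat3 had 0.20.

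Zc3h12a encodes regnase-1, an endonuclease that cuts inflammatory mRNAs and restrains IL-17 signalling. Its log2 level was 9.06 with IL17A plus ADSC medium and 5.10 with ADSC medium, and without medium 9.48 with IL17A and 5.42 in untreated cells. The difference within the medium was 15.6-fold. It was the only 1 of 14 measured mRNA stability genes past 2-fold, and the list's median was 0.14 (-0.08 with median scaling). Arid5a, which stabilizes Il6 mRNA, stood at 0.14, and the decay factor Zfp36 at 0.05.

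The secreted targets held the widest differences. Il6, an inflammatory cytokine and the inducer of the acute-phase response, had a log2 level of 10.47 with IL17A plus ADSC medium and 4.99 with ADSC medium, and without medium 11.80 with IL17A and 5.04 in untreated cells. Its probe was spotted 10 times on each array, and the spots gave a difference of 5.48 ± 0.10 (SD over 10 spots of the same RNA, which measures the array and not the cultures). Csf2 (GM-CSF), which drives granulocyte and macrophage growth, stood at 5.52 with IL17A plus ADSC medium and 2.91 with ADSC medium, a 6.09-fold difference near the background that fell to 0.67 on the log2 scale with normexp correction. Csf3 (G-CSF), which drives neutrophil production, was not well above background with ADSC medium and was at least 5.43-fold higher, with levels of 4.91 with IL17A plus ADSC medium and 1.13 with ADSC medium. With normexp the log2 difference of Csf3 was 0.47. The alarmin gene Il33 was 5.57-fold higher and the interleukin-1 antagonist gene Il1rn 2.95-fold.

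Of 16 measured cytokine and colony stimulating factor genes, 5 were at least 2-fold higher and 1 lower, while the median over the members above background on both arrays was -0.12. The lower gene was Il15, which supports lymphocytes, at 3.61 with IL17A plus ADSC medium and 4.67 with ADSC medium. Csf1 was bright at 13.61 with IL17A plus ADSC medium and 13.73 with ADSC medium, and Tnf, Il1a and Il1b were not well above background on either.

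Among CXC chemokines, 3 of 8 measured genes were at least 2-fold higher and 0 lower, with a median difference of 0.99. All 3 lie in the chemokine cluster on chromosome 5, the chromosome that holds 11 of the 15 listed CXC genes. Cxcl5, a neutrophil attractant, had a log2 level of 13.06 with IL17A plus ADSC medium and 7.14 with ADSC medium, and without medium 13.98 with IL17A and 8.28 in untreated cells. Cxcl1, which acts on the same receptor, read 14.46 with IL17A plus ADSC medium and 9.08 with ADSC medium, and without medium 15.02 with IL17A and 9.76 in untreated cells. Both genes were high on each IL17A array and low on each array without it. Ppbp, the third member, was 3.15-fold higher, at 5.80 with IL17A plus ADSC medium and 4.15 with ADSC medium. Cxcl16 fell just outside the rule at 0.99, Cxcl10, the interferon-inducible T cell attractant, had 0.89, and Cxcl12, a homing factor, had -0.35. Probes of Cxcl2 and Cxcl3 were not well above background on either array. On the mm9 build named with the probes, the Cxcl5 probe lay at chr5:91190205-91190264, the Cxcl1 probe at chr5:91321845-91321904 and the Il6 probe at chr5:30346362-30346421.

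Promoters are shown for Il6 and Cxcl1, and for the antimicrobial and complement genes Lcn2, Saa3 and C3 whose values follow, because NF-kB and C/EBP factors are known to act on such secreted genes. The sequences are from RefSeq (GRCm38.p6). Each line gives the 250 bases before the gene's start, 5′ to 3′ on the gene's strand. Capitals mark the letters GGGNNNTTCC, a loose form of the NF-kB motif, and TTGCNNAA, a loose form of the C/EBP motif, either strand, and matches that overlap run together. Their positions follow the sequences.
Il6: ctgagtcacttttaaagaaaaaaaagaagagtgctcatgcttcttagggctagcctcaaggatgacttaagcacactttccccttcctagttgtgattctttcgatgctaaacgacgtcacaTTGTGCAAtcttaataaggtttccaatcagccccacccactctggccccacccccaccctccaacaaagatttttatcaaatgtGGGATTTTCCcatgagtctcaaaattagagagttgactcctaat
Cxcl1: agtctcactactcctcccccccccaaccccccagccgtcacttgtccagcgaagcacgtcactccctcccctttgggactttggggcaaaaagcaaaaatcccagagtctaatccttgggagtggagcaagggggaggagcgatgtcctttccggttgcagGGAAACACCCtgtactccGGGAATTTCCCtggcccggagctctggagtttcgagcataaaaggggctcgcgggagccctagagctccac
Lcn2: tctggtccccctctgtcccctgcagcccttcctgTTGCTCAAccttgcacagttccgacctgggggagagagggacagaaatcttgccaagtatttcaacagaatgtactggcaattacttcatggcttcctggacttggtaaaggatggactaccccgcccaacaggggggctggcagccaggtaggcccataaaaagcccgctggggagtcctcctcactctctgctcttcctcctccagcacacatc
Saa3: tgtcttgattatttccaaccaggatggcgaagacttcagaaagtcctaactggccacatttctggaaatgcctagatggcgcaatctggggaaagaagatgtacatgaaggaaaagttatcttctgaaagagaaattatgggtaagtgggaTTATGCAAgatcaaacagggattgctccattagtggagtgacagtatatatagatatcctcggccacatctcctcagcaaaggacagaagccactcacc
C3: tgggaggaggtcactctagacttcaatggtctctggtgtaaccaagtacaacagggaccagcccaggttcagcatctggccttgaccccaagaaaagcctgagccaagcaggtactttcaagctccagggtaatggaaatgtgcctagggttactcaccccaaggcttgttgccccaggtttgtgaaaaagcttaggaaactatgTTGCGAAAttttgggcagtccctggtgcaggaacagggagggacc

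The windows lie at chr5:30012864-30013113 on the plus strand for Il6, chr5:90890995-90891244 on the plus strand for Cxcl1, chr2:32387740-32387989 on the minus strand for Lcn2, chr7:46715677-46715926 on the minus strand for Saa3 and chr17:57228137-57228386 on the minus strand for C3. Il6 had 1 match of each motif, the NF-kB form beginning 44 bases before the start and the C/EBP form 128 bases before it. Cxcl1 had 3 matches of the NF-kB form, of which the pair beginning 71 and 70 bases before the start overlap, and none of the C/EBP form. Saa3, Lcn2 and C3 each had 1 C/EBP match, beginning 99, 216 and 45 bases before the start. Of windows looked up and not shown, that of Zc3h12a had no match of either form and that of Csf2 had 1 C/EBP match. Of all 32851 promoter windows in the table, 4.65% held the NF-kB form and 9.56% the C/EBP form. Windows of genes at least 2-fold higher held the NF-kB form in 13 of 175 and the C/EBP form in 28 of 175, or 7.43% and 16.0%, and those of measured genes in 4.99% and 7.48%. For genes at least 2-fold lower the shares were 4.56% and 7.88%. A match is a string of letters and not a measured binding site.

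Among CC and CX3C chemokines, 3 of 12 measured genes were at least 2-fold higher and 0 lower, with a median of 0.34. Ccl2, the main monocyte attractant, had a log2 level of 16.59 with IL17A plus ADSC medium and 14.29 with ADSC medium, and without medium 17.05 with IL17A and 15.31 in untreated cells. It was thus bright on all arrays and 4.94-fold higher with IL17A in the medium. Ccl7 and Ccl8, which also attract monocytes, were 4.67-fold and 2.66-fold higher. Ccl5 had a difference of 0.82 and the membrane-bound chemokine gene Cx3cl1 had 0.34. Ccl20, which draws Ccr6-bearing cells, showed 4.07 with IL17A plus ADSC medium and 4.26 with ADSC medium, while without medium it stood at 5.27 with IL17A and was not well above background in untreated cells.

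Acute-phase and antimicrobial genes were few above background, and 4 of 8 measured were at least 2-fold higher and 1 lower. Saa3, a serum amyloid made outside the hepatocyte, had a log2 level of 6.38 with IL17A plus ADSC medium and 0.34 with ADSC medium, and without medium 9.49 with IL17A and 0.49 in untreated cells. The gene was well above background on both IL17A arrays and on neither of the others, and was at least 15.0-fold higher within the medium. Over the settings tried, its log2 difference shrank to as little as 1.28. Lcn2, an iron-scavenging lipocalin, followed the same order, with 5.35 with IL17A plus ADSC medium and 0.27 with ADSC medium, and without medium 8.00 with IL17A and 0.41 in untreated cells. Within the medium it was at least 7.33-fold higher, but its log2 difference with normexp was 0.84. Camp, the cathelicidin antimicrobial peptide, was at least 4.69-fold higher, with a log2 difference of 0.60 with normexp. Slpi, a protease inhibitor with antimicrobial activity, was 6.56-fold higher at 11.43 with IL17A plus ADSC medium and 8.71 with ADSC medium. The lower gene was lactoferrin (Ltf), well above background on the ADSC medium array alone. Saa1 had a difference of 0.26.

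C3, the central complement component, had a log2 level of 8.93 with IL17A plus ADSC medium and 5.93 with ADSC medium, and without medium 10.65 with IL17A and 5.20 in untreated cells. Within the medium it was 7.98-fold higher. Over its 9 spots per array the log2 difference had an SD of 0.06, and averaging all RefSeq probes of the gene gave a log2 difference of 1.83. C1s1, a protease of the classical pathway, was 2.34-fold higher. Clu, an inhibitor of the terminal complex, was 2.46-fold lower, and the receptor gene C3ar1 was 2.27-fold lower. The list as a whole went both ways, with 2 of 12 measured genes higher and 2 lower, against 1.5% and 1.9% of all measured genes. Its median was -0.20, which was 0.000364 with 75th percentile scaling.

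In prostaglandin and nitric oxide synthesis, 2 of 12 measured genes were higher and 0 lower. Ptgs2, the inducible cyclooxygenase, was 2.41-fold higher at 10.62 with IL17A plus ADSC medium and 9.35 with ADSC medium. The list's median was 0.08, or -0.12 with median scaling. Nos2, the inducible nitric oxide synthase, was not well above background with ADSC medium and was at least 3.38-fold higher, with a log2 difference of 0.45 with normexp. Over the 9 inflammatory and regulatory lists, the receptor and adaptor list left out, 26 of 121 measured genes, or 21.5%, were at least 2-fold higher and 4, or 3.31%, lower, against 1.5% and 1.9% of all measured genes. With the receptor and adaptor list they were 26 and 4 of 137, or 19.0% and 2.92%. The lists were drawn up with earlier results of these data known, so this share describes them and is no independent evidence. Interferon response genes and MHC class I genes, which inflammatory signals of another kind raise, had 0 members past 2-fold among 23 and 19 measured. That is near the share over all genes for lists of this size. Their medians were -0.11 and -0.22.

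**Figure D2:**
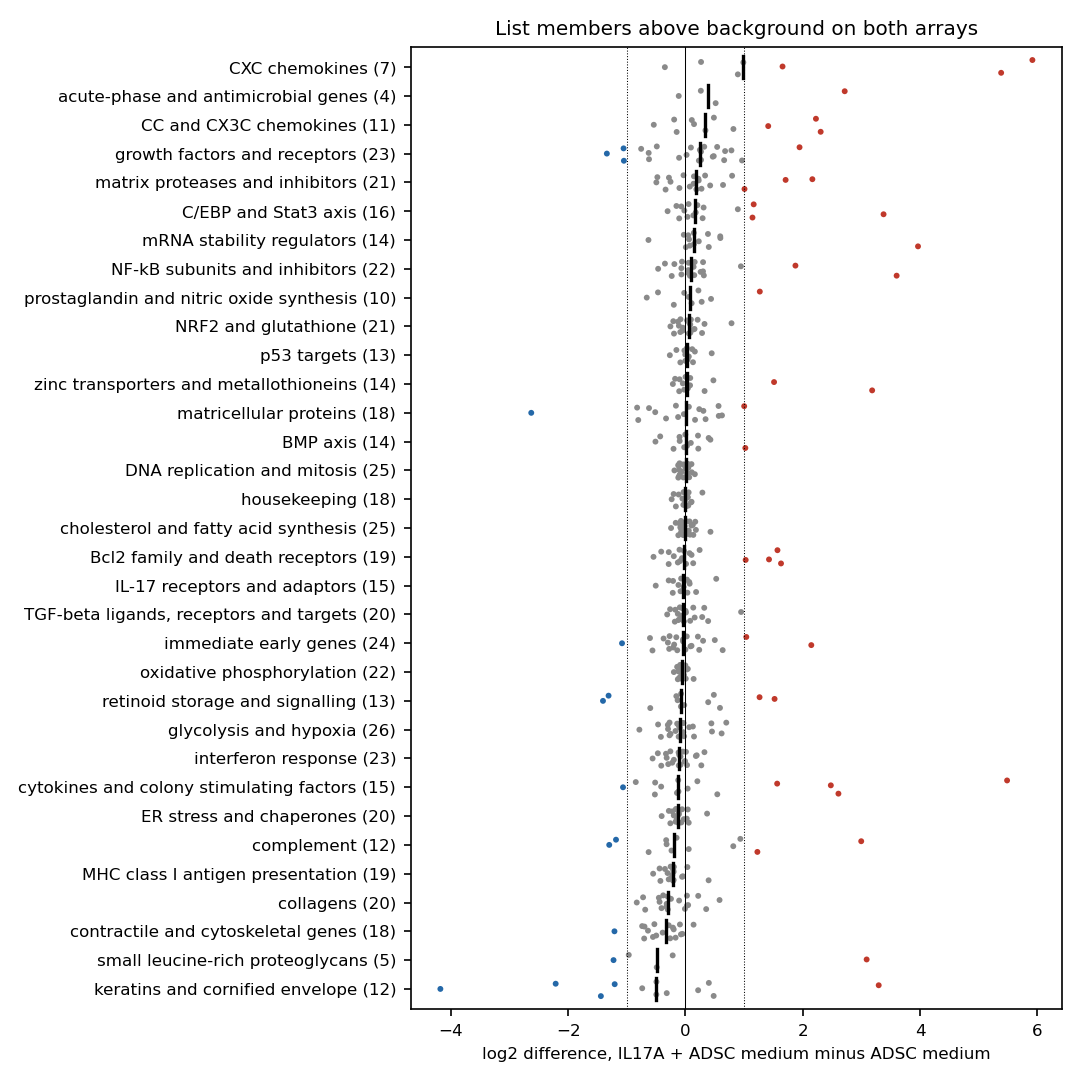
Log2 difference of IL17A plus ADSC medium minus ADSC medium for each list member above background on both arrays, with the number of such members beside the list's name. Black bars are medians, red and blue points lie at least 2-fold higher and lower, and the inflammatory lists carry long tails to the right while every member of the mitosis, oxidative phosphorylation and housekeeping lists lies well inside the dotted 2-fold lines.

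Matrix genes were on the whole a little lower or level. Of 21 measured collagen genes 0 passed 2-fold in either direction, near the 1.5% higher and 1.9% lower of all measured genes. The median difference was -0.30, with 14 of 20 members below 0. Col1a1, a chain of fibrillar type I collagen, read 13.95 with IL17A plus ADSC medium and 14.36 with ADSC medium, and without medium 14.14 with IL17A and 15.03 in untreated cells. Its partner chain Col1a2 had a difference of -0.72, Col6a3 of the beaded type VI had -0.83, Col3a1 had 0.02 and Col8a1 had 0.58. Dcn (decorin), a small proteoglycan that binds collagen and TGF-beta, went the other way, at 9.28 with IL17A plus ADSC medium and 6.19 with ADSC medium, 8.50-fold higher. Ogn (osteoglycin), of the same family, was 2.34-fold lower, and the median of that family was -0.49 over 5 members.

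Mgp, the matrix Gla protein that inhibits calcification, had a log2 level of 4.59 with IL17A plus ADSC medium and 7.22 with ADSC medium, and without medium 3.58 with IL17A and 7.36 in untreated cells. Both IL17A arrays were low, and the difference within the medium was 6.19-fold. The matricellular gene Tnc (tenascin C) lay at the edge of the rule, with 6.04 with IL17A plus ADSC medium and 5.04 with ADSC medium. Ccn2, a profibrotic matricellular gene, had -0.82 and Postn (periostin) -0.62. Among matrix proteases and inhibitors, 3 of 23 measured genes were higher and 0 lower, against 1.5% and 1.9% of all measured genes. These were the stromelysin gene Mmp3 (4.48-fold), the plasminogen activator inhibitor gene Serpinb2 (3.26-fold) and Adamts9 (2.01-fold).

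Of 18 contractile and cytoskeletal genes above background, 17 lay below 0, with a median of -0.34. Lmod1, an actin nucleator of smooth muscle, was 2.31-fold lower and the only member past 2-fold. Tagln (transgelin) had -0.74, the myosin light chain gene Myl9 -0.70 and vimentin -0.50. No member of the TGF-beta list passed 2-fold among 20 measured, near the share over all genes. The median was -0.04, and the list's highest member was Ltbp2, a latent TGF-beta binding protein gene, at 0.95.

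Growth factor genes went both ways, with 1 of 24 measured higher and 3 lower, against 1.5% and 1.9% of all measured genes. The count of 1 higher is near that share. The list's median was 0.25, or -0.0043 with median scaling. Fgf7, a stromal growth factor for epithelia, was 3.85-fold higher, at 10.45 with IL17A plus ADSC medium and 8.50 with ADSC medium. Pleiotrophin (Ptn) was 2.53-fold lower, amphiregulin (Areg) 2.08-fold and Igf1 2.07-fold. With normexp their log2 differences were -0.58, -0.50 and -0.70, all under 2-fold. Among immediate early genes, Ier3, an NF-kB target, was 4.42-fold higher, Nr4a2, a nuclear receptor gene, was 2.05-fold higher and Egr1 was 2.12-fold lower. Fst, the activin antagonist follistatin, lay just past the mark at 1.02. In the list of Bcl2 family and death receptor genes 4 of 19 measured were higher, against 1.5% of all measured genes. These were the death receptor gene Fas (3.09-fold), the inflammatory caspase gene Casp4 (2.96-fold), the BH3-only gene Bcl2l11 (2.68-fold) and the TNF receptor gene Tnfrsf1b (2.04-fold).

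Zinc and retinoid genes held single large members. Slc39a4, a zinc importer, had a log2 level of 7.66 with IL17A plus ADSC medium and 4.48 with ADSC medium, and without medium 8.62 with IL17A and 4.29 in untreated cells, a 9.08-fold difference within the medium. The zinc-binding metallothionein gene Mt2 was 2.85-fold higher, while Mt1 differed by 0.48. Among 14 measured retinoid genes, 3 were higher and 2 lower, against 1.5% and 1.9% of all measured genes. The higher ones included Dhrs3 (a log2 difference of 1.52) and Rdh10 (1.26), which interconvert retinal and retinol, and the lower ones were Aldh1a1 (2.65-fold), which makes retinoic acid, and Crabp2 (2.48-fold), which carries it. The third higher one, Lrat, which esterifies retinol for storage, was well above background on the array with IL17A plus ADSC medium alone and was at least 2.58-fold higher. With normexp all of these retinoid calls fell under 2-fold. The log2 differences were then 0.40 (Dhrs3), 0.95 (Rdh10), 0.43 (Lrat), -0.53 (Aldh1a1) and -0.45 (Crabp2).

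Keratin and cornified envelope genes had 1 of 13 measured higher and 4 lower, against 1.5% and 1.9% of all measured genes. Their median was -0.50, which was -0.14 with normexp and -0.32 with no filter on dim probes. The higher one was Sprr2h, and the lower ones were Krtap6-1, Krt19, Krt18 (-1.44) and Sprr1a (-1.21). Of the BMP genes, 2 of 15 measured were higher, Fst and Id4, against 1.5% of all measured genes, and the list's median was 0.01. Housekeeping, metabolic, stress and cell cycle genes had no member past 2-fold, against 1.5% higher and 1.9% lower of all measured genes. The medians were -0.0054 over 18 housekeeping genes, 0.00029 over 25 genes of DNA replication and mitosis, -0.06 over 22 genes of oxidative phosphorylation, -0.01 over 25 of cholesterol and fatty acid synthesis and -0.09 over 26 of glycolysis and hypoxia. They were -0.12 over 20 genes of ER stress, 0.06 over 21 NRF2 genes and 0.02 over the 13 p53 targets above background on both arrays. With median scaling the medians of the BMP, NRF2, p53 and mitosis lists lay below 0, between -0.26 and -0.10. Differences among the mitosis genes ran between -0.19 and 0.16.

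Besides the genes of the inflammatory lists, the 20 largest higher genes included Urah, a urate pathway enzyme (28.8-fold), Sprr2h of the cornified envelope family (9.81-fold), the copper oxidase gene ceruloplasmin (Cp, 9.19-fold), Ankk1 (8.95-fold), Oog1 (8.33-fold) and Gstt4, a glutathione transferase gene (7.08-fold). Prl2c5 and Prl2c3, closely similar genes of the prolactin family whose probes may share transcripts, had log2 differences of 2.91 and 2.90. With normexp, Ankk1, at 2.65 with ADSC medium close to the background, had a log2 difference of 0.84 and so no longer passed 2-fold, while Oog1 had 1.46 and Cp 1.19. Urah read 10.80 with IL17A plus ADSC medium and 5.95 with ADSC medium, and without medium 12.19 with IL17A and 5.41 in untreated cells.

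On the lower side, the 20 largest included genes low on both IL17A arrays and genes that stood out on the ADSC medium array. Krt19, a simple epithelial and mesothelial keratin, was low with IL17A in both settings, at 7.14 with IL17A plus ADSC medium and 9.36 with ADSC medium, and without medium 7.99 with IL17A and 9.38 in untreated cells. Within the medium it was 4.64-fold lower. Klhl30 was 6.70-fold lower, the enzyme gene Aspa 5.60-fold, Wnt10a, a Wnt ligand gene, 3.52-fold and the laminin gene Lamb3 3.49-fold, each of them 2.22-fold to 10.6-fold lower without medium as well. With normexp, Aspa (-0.71), Wnt10a (-0.96) and Lamb3 (-0.84) no longer passed 2-fold, and Klhl30 had -1.12. Krtap6-1 had instead 2.85 with IL17A plus ADSC medium and 7.03 with ADSC medium, and without medium 3.30 with IL17A and 2.71 in untreated cells. Hydin read 2.82 with IL17A plus ADSC medium and 6.54 with ADSC medium, and without medium the difference was 0.29. For both, the array with ADSC medium was the high one and the other 3 lay well below it, and with normexp their differences were -1.42 and -1.08. For Hydin, reading the gene from its brightest probe with or without a RefSeq accession gave -0.33.

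**Figure D3:**
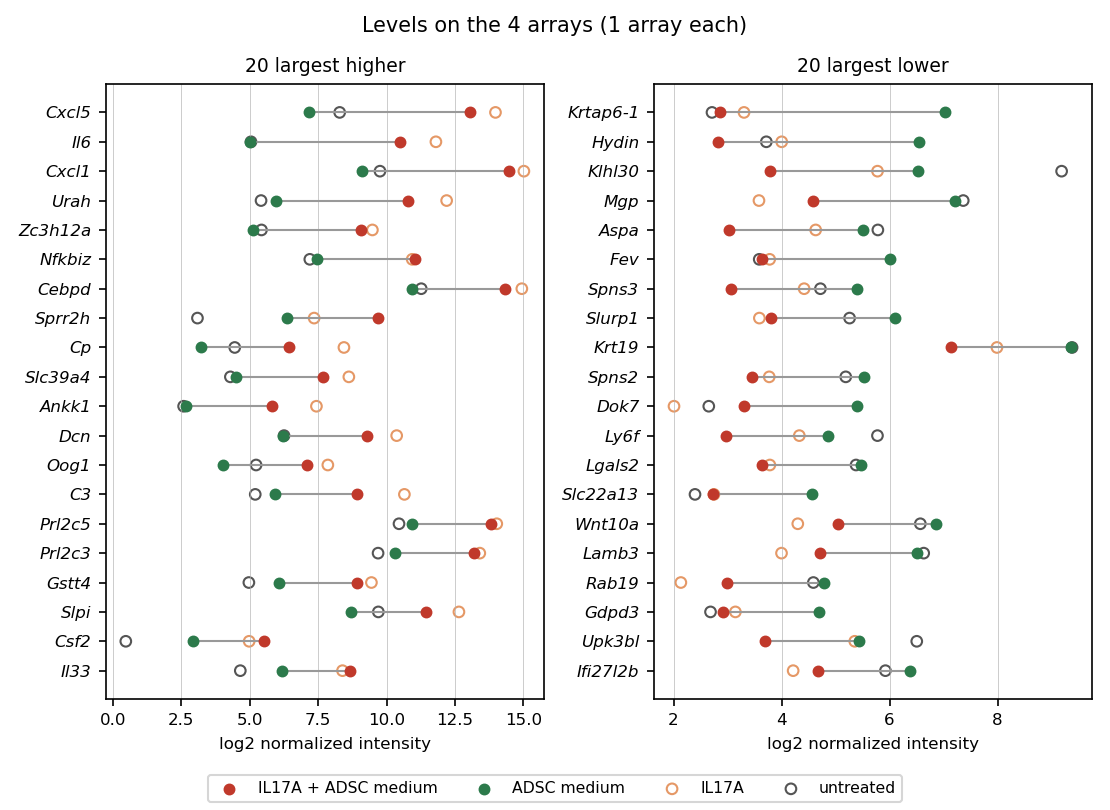
Log2 normalized intensity on each of the 4 arrays for the 20 named genes with the largest higher and the 20 with the largest lower differences above background on both medium arrays. Filled points joined by a line are IL17A plus ADSC medium (red) and ADSC medium (green), and open points are IL17A (orange) and untreated (grey), and Krtap6-1, Hydin and Fev stand out on the ADSC medium array, unlike Mgp and Krt19.

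Bounds add 86 of the 198 higher and 93 of the 251 lower genes, and of these 64 and 60 were well above background on 1 of the 4 arrays and on no other. The largest higher bounds were Irak3, a brake on interleukin-1 and Toll-like receptor signalling (at least 29.3-fold), Cadm3 (at least 18.7-fold) and Ankrd33b (at least 18.4-fold). All of these were bright on the array with IL17A plus ADSC medium alone. The other RefSeq probes of Ankrd33b, none above background on both arrays, had log2 differences between -0.68 and 0.27. The 8 largest higher bounds also included the olfactory receptor genes Olfr729 and Olfr1178. The 8 largest lower bounds included Otulinl (at least 37.2-fold), the olfactory receptor genes Olfr497 (at least 16.9-fold) and Olfr1213 (at least 16.5-fold), and the pheromone receptor gene Vmn1r212 (at least 11.2-fold), each bright on the ADSC medium array alone. Without genes bright on a single array, 134 were higher and 191 lower.

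Some named calls ended with normexp. Among higher genes above background on both arrays these were Adamts9, Ankk1, C1s1, Csf2, Dhrs3, Fst, Il1rn, Mmp3, Nr4a2, Ppbp, Rdh10, Tnc and Tnfrsf1b, with log2 differences of 0.23 (Fst) to 0.96 (Nr4a2). On the lower side Krtap6-1, Hydin, Klhl30, Mgp, Krt19, Egr1 and Sprr1a stayed past 2-fold, and the 26 others, among them Clu, C3ar1, Il15, Ogn, Lmod1, Ptn, Areg, Igf1, Krt18, Aldh1a1 and Crabp2, did not. Of the bounds named, those of Nfkbid, Csf3, Nos2, Lcn2, Camp, Lrat, Id4, Ltf, Vmn1r212, Olfr729 and Olfr1178 also had log2 differences under 1 in size with normexp. Socs3 (0.91) and Osmr (0.91) were under 2-fold with median scaling, as were Adamts9, Nr4a2, Tnc and Tnfrsf1b. With the mean over all RefSeq probes of the gene, Il1rn (0.78), Adamts9 (0.78), Tnfrsf1b (0.75) and the bound Id4 (0.43) fell under 2-fold.

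The IL17A difference within the medium was then set beside that without medium, which rests on the other 2 arrays and so shares none. Without medium, 295 of 13113 measured genes were at least 2-fold higher, or 2.25%, and 262 lower, or 2%. The genes higher in both settings numbered 102, which is 51.5% of those higher within the medium and 34.6% of those higher without it. The genes lower in both numbered 77, or 30.7% of the list within the medium and 29.4% of the list without it. Over the 12292 genes above background on all 4 arrays, the 2 sets of differences correlated with r = 0.649 (Pearson) and rho = 0.452 (Spearman). Genes are not independent replicates, so no p is given.

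Of 103 genes higher within the medium and above background on all arrays, 92 lay above 0 without medium as well, with a median of 1.49 within the medium and 1.80 without it. For 139 lower genes, 117 had the same sign, with medians of -1.20 within the medium and -0.93 without it. Both sets were chosen by their size within the medium, so the rule itself puts that median past 2-fold. The paired medians therefore do not show in which setting the response was larger. Cxcl5, Cxcl1, Nfkbiz and Zc3h12a had nearly the same differences in both settings, at 5.91, 5.38, 3.60 and 3.96 within the medium and 5.70, 5.26, 3.74 and 4.05 without it. The difference was smaller within the medium for Il6 (5.48 within and 6.76 without), Bcl3 (1.87 and 3.09), Osmr (1.14 and 2.42) and Fas (1.63 and 2.80). It was larger within it for Ccl2 (2.30 and 1.74) and Krt19 (-2.21 and -1.39). For Bcl3, the levels in cells without IL17A differed, at 10.41 with ADSC medium and 9.21 in untreated cells, while the levels with IL17A were 12.29 within the medium and 12.30 without it. Whether these differences of differences exceed the variation between cultures was not tested, since each rests on 4 single arrays.

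**Figure D4:**
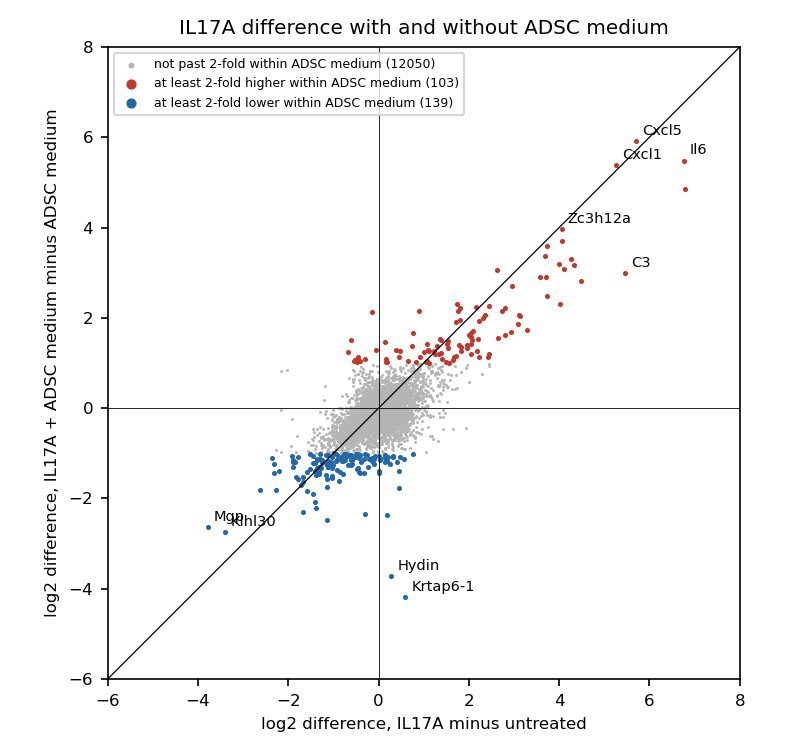
Log2 difference of IL17A plus ADSC medium minus ADSC medium (vertical axis) against that of IL17A minus untreated (horizontal axis) for the 12292 genes above background on all 4 arrays. Red and blue points are at least 2-fold higher and lower within ADSC medium, the diagonal marks equal differences, and Il6 and C3 lie to the right of it while Cxcl5 and Cxcl1 lie close to it and Krtap6-1 and Hydin far below it.

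Several genes past 2-fold without medium were not past it within the medium. Junb had 0.63 within the medium and 1.45 without it, Serpina3g had 0.51 and 1.49, Saa1 0.26 and 1.29, and the kinase gene Ripk2 0.31 and 1.38. For Ccl20 the difference was -0.19 within the medium, and without it the gene passed 2-fold as a bound, its level with ADSC medium being well above background and that in untreated cells not. Areg was past 2-fold within the medium and not without it, at -1.06 within and -0.09 without.

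The cell type label was read against marker genes. Vimentin, Col1a1, Col1a2, Col3a1 and Pdgfra, shared by stellate cells and other mesenchymal cells, were above background, and 14 of 20 stellate markers were measured on at least 1 of the medium arrays. The listed markers Gfap, Reln, Hand2, Rgs5, Hgf and Lum were not well above background on either. The rest of the list, among them Des, Lhx2, Ngfr, Colec11 and Ecm1, was measured, with Lrat above background on 1 of them. The summed stellate intensity was 103220 with IL17A plus ADSC medium and 132242 with ADSC medium. Without medium it was 105660 with IL17A and 153736 in untreated cells, so that it was lower on both IL17A arrays. Hepatocyte markers gave 2 of 11 measured, with albumin and Apoa1 dim, and a summed linear intensity of 36.1 with IL17A plus ADSC medium and 41.0 with ADSC medium. Of the leukocyte markers, 6 of 13 were measured. Ptprc and Adgre1 were dim, Csf1r had a difference of 0.94, Cd14 0.80, Cd68 -0.04 and Cd3e -0.23, and Marco was above background with ADSC medium and not with IL17A plus ADSC medium. The summed leukocyte intensity was 881 with IL17A plus ADSC medium and 583 with ADSC medium, and without medium 1384 with IL17A and 577 in untreated cells. It was thus higher on both IL17A arrays, and its part in the inflammatory genes was not tested. Of the endothelial markers, 4 of 11 were measured, with Pecam1 and Cdh5 dim and summed intensities of 1260 with IL17A plus ADSC medium and 1358 with ADSC medium. Of the adipocyte and adipose stromal markers, 7 of 12 were measured, with Adipoq, Plin1 and Lep dim, Fabp4 at 0.51 and Pparg at -0.50. Their summed intensity was 15091 with IL17A plus ADSC medium and 19893 with ADSC medium. Of the cholangiocyte and mesothelial markers, 5 of 10 were measured, with summed intensities of 15437 with IL17A plus ADSC medium and 16799 with ADSC medium. Among these, Krt19 had a difference of -2.21, Msln had -0.55, Krt7 -0.50, Sox9 -0.01 and Spp1 0.62, and Epcam, Cdh1, Wt1 and Upk3b were dim, and their part in the difference of Krt19 was not tested.

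The precision was read from probes spotted several times. Between spots of the same RNA, the SD of the log2 difference was 0.42 for probes dimmer than 5 on the log2 scale, 0.10 for those between 5 and 7, and 0.05 for brighter ones. This covers the array alone and no variation between cultures. Where a higher gene had several RefSeq probes above background, they had the same sign in 25 of 26 cases, and for lower genes in 28 of 29. Just inside the 2-fold rule lay Adamts9 (1.01) and Lmcd1 (1.02), and just outside it Neurl3 (0.99) and Cxcl16 (0.99). On the lower side, Peg10 was just inside, at 4.10 with IL17A plus ADSC medium and 5.10 with ADSC medium, and Mlc1 just outside, at 3.16 with IL17A plus ADSC medium and 4.15 with ADSC medium.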

How the data were processed

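Total RNA of IMS/N cells was labelled with Cy3 per the labels' protocols and read on 1-colour Agilent arrays, 1 per group. Each deposited intensity is linear and was corrected for background within its array by Feature Extraction 12.1.1.1, per the file headers. A deposited score of 0 or 1 marks spots as above background, as saturated or as outliers. The authors applied quantile normalization, as the series design states. The submitters' processing notes name R 3.5.1. The 2 deposited gene lists were not used.

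Here, log2 values computed from the deposited intensity of non-control spots were quantile normalized over the 4 arrays after outlier spots (91 to 126 per array) were removed, and spots of a probe were averaged. No spot was saturated. Of 41174 probes, 28548 carry a RefSeq accession (NM_ or NR_), and they gave 19300 genes, each read from its brightest probe and named through the GRCm38.p6 table (28345 probes by accession). Probe positions are those of the files, on mm9.

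Named genes were the 20 largest differences per direction above background on both arrays, without clone and predicted names or probes of opposite sign, 8 bounds per direction, up to 6 members of each list, and all members of the chemokine, cytokine, acute-phase, receptor, mRNA stability, NF-kB, C/EBP and collagen lists. The text takes fewer. Lmcd1, Peg10, Neurl3 and Mlc1 are named as nearest the threshold. The members and the 33 pathway and 6 marker lists were chosen with earlier results of these data known. The number of arrays limits the precision. Tools were Python 3.11.15, pandas 2.3.3, NumPy 2.4.6, SciPy 1.17.1, and limma 3.58.1 for normexp (R 4.3.3). Alternatives covered scaling, background correction, filters, probe choice and thresholds.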

Additional observations from a re-analysis of the deposited data

Results flagged for a closer look

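A number of named genes above background on all 4 arrays had IL17A differences of opposite sign with and without ADSC medium, with at least 1 of them past 2-fold. Each rests on 4 single arrays, and the change of sign was not tested. The log2 difference was -4.18 within the medium and 0.59 without it for Krtap6-1, -3.72 and 0.29 for Hydin, -2.36 and 0.19 for Fev, and -1.77 and 0.46 for Gdpd3. These genes were higher on the ADSC medium array than on the other 3. C3ar1 stood at -1.18 within the medium and 0.41 without it, Il15 at -1.06 and 0.33, and Fos at -0.61 and 1.19. Fst stood at 1.02 within the medium and -0.48 without it.

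Probes without a RefSeq accession, which the report leaves out, behaved differently from the rest. Of 5462 such probes above background, 9.36% (511) were at least 2-fold higher with IL17A in ADSC medium and 1.48% (81) lower, with a median log2 difference of 0.10. RefSeq probes had 1.32% higher and 1.61% lower, with a median of -0.05. Without medium, 1.37% of the probes without an accession were higher and 2.86% lower. The share of such spots well above background was 41.8% with IL17A plus ADSC medium and 38.6% with ADSC medium, and without medium 36.4% with IL17A and 40.9% in untreated cells. With RefSeq probes normalized together, 246 RefSeq genes were higher and 162 lower. With 75th percentile scaling, which keeps the other probes, the counts were 259 and 146. The part of the probes without an accession in the scaling was not tested.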

How the results depend on the processing

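No paired analysis was possible because each group had 1 array. The counts of 198 higher and 251 lower genes, the 26 higher members of the inflammatory lists and the r of 0.649 moved as follows, and the causes were not tested except where a filter or threshold changes the set itself. Scaling by the 75th percentile left 146 lower genes, and normalizing RefSeq probes alone 162. With normexp there were 58 higher and 22 lower genes, 17 list members and an r of 0.762. Requiring both arrays above background left 112 and 158, and no filter gave 465 and 698 with an r of 0.283. All probes gave 460 higher genes and an r of 0.425. A 1.5-fold threshold gave 457 and 806, and a 4-fold threshold 72 and 32 with 16 list members. With median scaling 11 list medians turned from above to below 0, those of mRNA stability (-0.080), NF-kB (-0.12), C/EBP and Stat3 (-0.075), growth factor (-0.0043), prostaglandin and nitric oxide (-0.12), matricellular (-0.20), BMP (-0.10), mitosis (-0.26), NRF2 (-0.21), zinc (-0.12) and p53 genes (-0.20). Complement turned with 75th percentile scaling (0.000364) and with no filter (0.0076), prostaglandin and nitric oxide genes with no filter (-0.02), and leukocyte markers with all probes (-0.044) and with dim members at their bound (-0.14). The matricellular, mitosis, Bcl2, p53 and housekeeping medians, all within 0.03 of 0, also changed sign under some other settings, to values between -0.05 and 0.02. No named gene called on both arrays changed sign under these settings. Of 45 such higher genes, 32 stayed past 2-fold with normexp, 39 with median scaling and 42 with the mean over all RefSeq probes of the gene. Of 33 lower genes 7 did with normexp and 29 with 75th percentile scaling. Leaving out genes bright on 1 array, which was chosen after seeing the data, gave 134 higher and 191 lower. Signal near background limits the bounds and most lower genes, and the keratin median was -0.14 with normexp.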

Other observations

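Some genes outside the lists were past 2-fold in both settings, and were picked after their values were seen. Nod2, a sensor of bacterial cell wall, had a log2 difference of 2.22 within the medium and 2.80 without it. Trem2, a lipid-sensing receptor of myeloid cells, had 1.73 within the medium while without it untreated cells gave no reading above background, and Enpp2 (autotaxin), which makes lysophosphatidic acid, had 1.26 and 2.18. The pattern recognition protein Ptx3 had 1.39 and 1.78, and Tnfaip6, a hyaluronan-binding protein, had 1.49 and 1.55. On the lower side, the Wnt ligand genes Wnt4 and Wnt6 had -1.49 and -1.32 within the medium and -1.17 and -1.27 without it. Cd248 (endosialin), a stromal cell surface gene, had -1.15 and -1.35. The parathyroid hormone-related gene Pthlh had 2.13 within the medium and -0.15 without it, the circadian repressor gene Cry1 had -1.43 and 0.01, and the long noncoding RNA gene Neat1 had 1.08 and -0.52.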
